A study of Mus musculus with 8 samples.

Results

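Hcrt and Pmch encode the precursors of the orexins (hypocretins) and of melanin-concentrating hormone (MCH). They were taken from RNA sequencing of embryonic mouse hypothalamus as the rows with these gene symbols, with rows sharing a symbol added together. Both symbols were found in all 8 tables, with 1 row each, among 22725 symbols listed at every stage. The hypothalami came from embryos mutant for Foxd1, which encodes a forkhead transcription factor, and from wild-type embryos. For each genotype there was 1 library at E12.0, 1 at E12.5 and 2 at E17.5. The question put by the study was whether anterior hypothalamic neurons need Foxd1 to differentiate.

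The mutant libraries were labelled Foxd1-mutant and came from 8 Foxd1-null embryos in all, and the libraries labelled wild-type came from 10 control embryos in all. The protocol words the controls so that wild-type or Foxd1-mutant embryos could be among them. Each library was made from pooled RNA, and strain, sex and the details of the allele were not given in the sources used here. Nothing says that the pools of a genotype came from separate litters, so p-values measure the spread between these libraries. The protocol names dissections at E12.5 and E17.5 alone, so whether the E12.0 libraries were a separate collection is not settled.

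In the adult brain, orexin and MCH are made by separate neurons that lie intermingled in the lateral hypothalamus and project widely. Orexin is cut from its precursor as 2 peptides, orexin A and orexin B, and keeps animals awake and drives food seeking. Its loss causes narcolepsy in mice and people. MCH promotes feeding and sleep, and its precursor also carries the peptides neuropeptide EI and neuropeptide GE.

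Levels were deposited as FPKM, fragment counts scaled to transcript length and to the fragments of the library. Foxd1 checked the labels, with 2.77 FPKM in the mutant and 24.95 FPKM in the wild-type library of E12.0. In the E12.5 pair it stood at 2.50 FPKM in mutant and 30.3 FPKM in wild-type. At E17.5 it was at 0.396 and 0.230 FPKM in the mutant libraries and at 3.90 and 1.96 in the wild-type libraries. All 8 libraries lay on the side of their label. The step that 1 fragment makes in low FPKM values put depth at 40.8 and 30.3 M fragments in the mutant and 34.6 and 43.5 M in the wild-type libraries of E17.5. At E12 fewer of the low values fell on whole steps (31.2% to 41.0%, against 79.3% to 80.6% at E17.5), so depth there was too uncertain to use.

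The 250 bases before the RefSeq start of each gene are printed because they are the stretch next to the start whose output was measured here. They are given 5′ to 3′ on the strand of the gene, in build GRCm38.p6, which is not the build of the deposited values. Hcrt lies on chromosome 11, with the stretch at chr11:100762932-100763181 on the minus strand, and Pmch on chromosome 10, with the stretch at chr10:88090822-88091071 on the plus strand. Capitals mark matches, on either strand, to the TATA box letters TATAAA, the E-box letters CANNTG and the forkhead core letters GTAAACA.
Hcrt: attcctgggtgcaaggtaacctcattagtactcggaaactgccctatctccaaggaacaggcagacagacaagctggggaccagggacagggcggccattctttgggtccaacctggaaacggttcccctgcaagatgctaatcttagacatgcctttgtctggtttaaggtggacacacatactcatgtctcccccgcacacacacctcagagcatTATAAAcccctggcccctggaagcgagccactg
Pmch: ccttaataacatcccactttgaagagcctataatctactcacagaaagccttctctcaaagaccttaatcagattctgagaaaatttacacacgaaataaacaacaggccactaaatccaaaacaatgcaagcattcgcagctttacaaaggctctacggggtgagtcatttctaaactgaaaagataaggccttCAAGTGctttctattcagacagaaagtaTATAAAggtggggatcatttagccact
Each stretch held 1 TATA box match, beginning 33 bases before the start of Hcrt and 27 bases before that of Pmch, and 12.4% of 32851 mouse promoters of this length held one. Pmch held 1 E-box match, CAAGTG, beginning 55 bases before its start, and Hcrt held none, while 66.2% of the promoters held one. Neither held the exact letters GTAAACA, which 3.17% of the promoters did, and none of the matches overlapped. Variants of these letters were not searched for, such as ATAAACA, which the printed stretch of Pmch holds. The stretch of Hcrt was richer in G and C (53.6%) than that of Pmch (38.4%), beside a mean of 53.2% over all promoters. A match is no evidence of binding, and the absence of these letters from so short a window says nothing about Foxd1.

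Pmch was listed above 0 in every library, while Hcrt was listed at or near 0 at E12.0 and E12.5 and above 0 in all libraries of E17.5. Pmch was at 8.71 FPKM in the mutant and 5.81 FPKM in the wild-type library of E12.0. In the E12.5 pair it reached 37.1 FPKM in mutant and 26.2 FPKM in wild-type. By E17.5 it averaged 60.7 ± 6.31 FPKM in mutant and 54.9 ± 1.23 FPKM in wild-type (SD, n = 2 each). The E12.5 level was 4.25 times that of E12.0 in mutant and 4.50 times in wild-type. For Hcrt, both E12.0 libraries were listed at 0. The E12.5 library of the mutant was also at 0, and that of the wild-type held 0.137 FPKM. At E17.5 it averaged 4.82 ± 1.30 FPKM in mutant and 8.34 ± 1.09 in wild-type (SD, n = 2 each). An exact 0 in FPKM may also be a failed estimate. The early and late tables were not scaled together and each early stage has 1 library a genotype, so the order of onset is a description and was not tested.

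**Figure D1:**
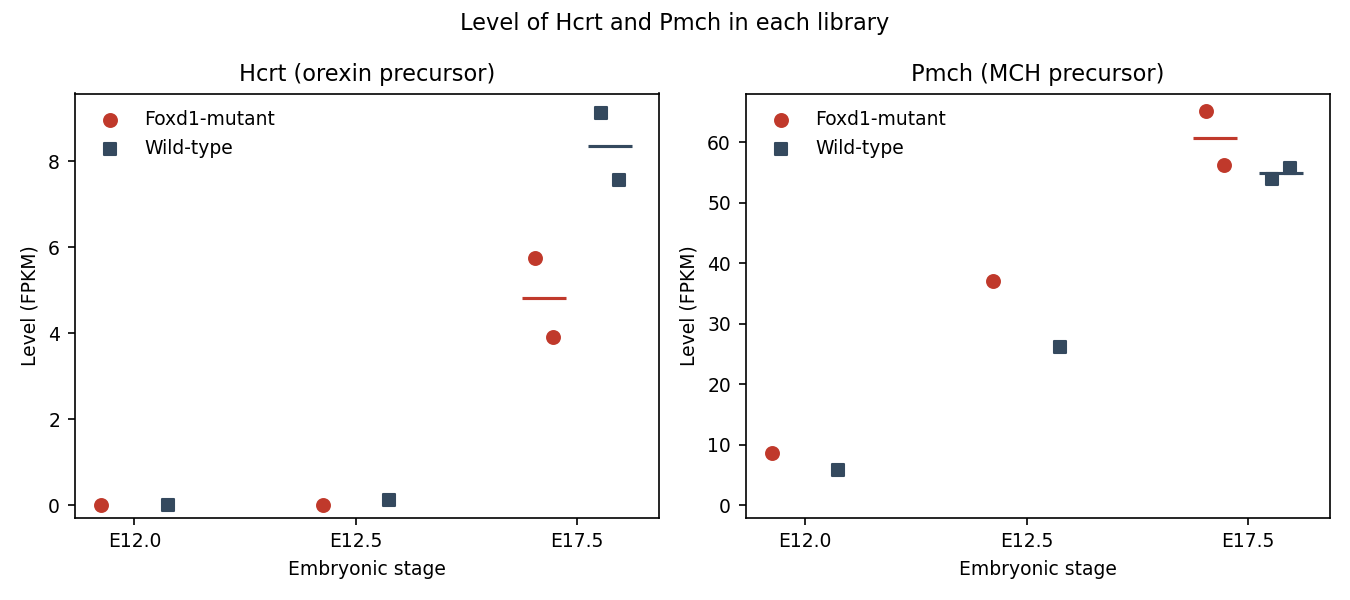
Level of Hcrt (left) and Pmch (right) in FPKM for each library, by embryonic stage, with mutant libraries as circles, wild-type libraries as squares and the mean of the 2 libraries of E17.5 as a line. Hcrt is at or near 0 at E12.0 and E12.5, and at E17.5 its mutant values lie below its wild-type values, while Pmch is above 0 in every library.

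The annotation of Pmch bears on its early values. The last of the 11 exons of Parpbp, a gene for an inhibitor of homologous recombination, runs antisense over Pmch and overlaps 2 of its 3 exons, or 435 of 749 exonic bases (58.1%, GENCODE M21). No source used here says whether the libraries kept strand, so reads from the shared stretch cannot be told apart. Parpbp was at 3.03 FPKM in the mutant and 2.27 FPKM in the wild-type library of E12.0, and at 2.78 FPKM in mutant and 2.77 FPKM in wild-type in the E12.5 pair. The E17.5 libraries held 1.17 and 1.26 FPKM in mutant and 0.991 and 1.07 FPKM in wild-type. The ratio of Pmch to Parpbp was 2.88 in mutant and 2.56 in wild-type in the E12.0 pair, and 13.4 in mutant and 9.44 in wild-type in the E12.5 pair. By E17.5 it was 55.6 and 44.7 in mutant and 54.5 and 52.1 in wild-type. The E12.0 level of Pmch is therefore the one closest to that of its antisense partner. The part of Parpbp reads in it was not tested. Hcrt has 2 exons, and no gene overlaps it in RefSeq.

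**Figure D2:**
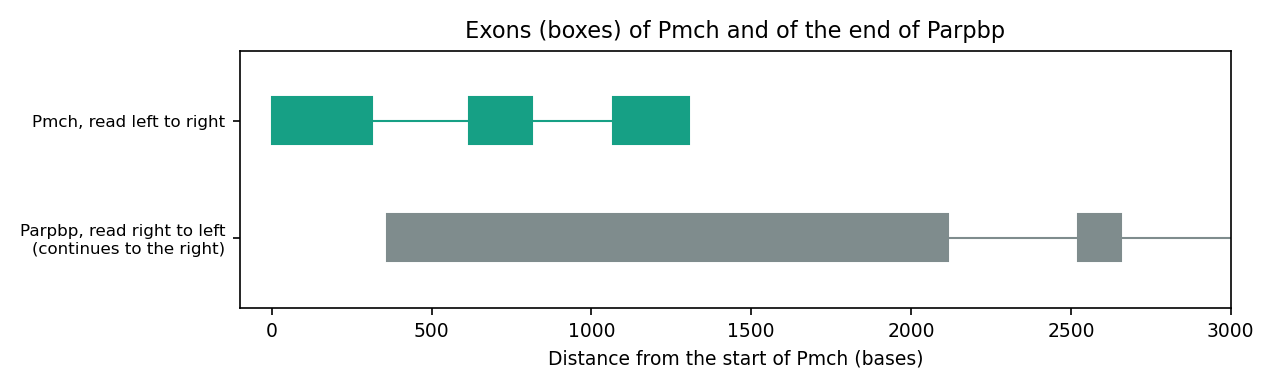
Exons, as boxes, of Pmch and of the end of Parpbp by distance in bases from the start of Pmch, with lines for introns. The last exon of Parpbp, read in the opposite direction, overlaps 2 of the 3 Pmch exons.

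At E17.5 the 2 lowest values of Hcrt were those of the mutant. Hcrt was at 5.74 and 3.91 FPKM in the mutant libraries and at 9.12 and 7.57 FPKM in the wild-type libraries. The 2 groups did not overlap, which was true in this direction for 22.2% of all 13235 genes tested. The mutant mean was 0.578 times the wild-type mean, and on the log2(FPKM + 1) scale, which understates changes of low genes, the difference was -0.70 with a standard error of 0.17 (95% interval -1.11 to -0.28). By limma the unadjusted p was 0.00691, a value that 72 genes, Hcrt included, reached or went below, and 5.7% of all genes were under 0.05. Adjusted over all genes by the method of Benjamini and Hochberg it was 0.689, so Hcrt did not pass the threshold of 0.05. Foxd1, the mutated gene, had the same adjusted p at E17.5, at an unadjusted p of 0.000942 by limma. Of 13235 genes 1 (0.00756%) passed that threshold, Oxt, the oxytocin precursor, which was lower. The log2 difference of Hcrt was the 34th lowest of all genes tested.

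The values stand for few fragments. With the estimated depth and a transcript of 586 bases, Hcrt rested on about 98 and 49 fragments in the mutant libraries and about 131 and 137 in the wild-type libraries. Counting error alone gives 95% Poisson intervals of 4.66 to 6.999 and 2.89 to 5.16 FPKM for the mutant libraries, and of 7.62 to 10.8 and 6.36 to 8.95 FPKM for the wild-type libraries. The interval of mutant replicate 1 thus reached into that of wild-type replicate 2, and the other mutant and wild-type intervals did not overlap. These intervals leave out the spread between embryos and any error of the depth itself. In bulk tissue, fewer Hcrt cells and less Hcrt RNA per cell cannot be told apart.

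Pmch, in the same libraries, was not lower. It was at 65.1 and 56.2 FPKM in the mutant libraries and at 54.0 and 55.8 FPKM in the wild-type libraries of E17.5. Both mutant libraries lay above both wild-type libraries, as for 20.9% of the genes tested, but mutant replicate 2 and wild-type replicate 2 were almost level. The log2 difference was 0.14 with a standard error of 0.08 (95% interval -0.06 to 0.33), and limma gave an unadjusted p of 0.132 and an adjusted p of 0.689. That interval holds levels in mutant between 0.961 and 1.26 times those in wild-type. Pmch rested on about 1539 and 984 fragments in the mutant libraries and 1082 and 1403 in the wild-type libraries, so counting error was small beside that of Hcrt.

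The ratio of the 2 peptide genes within a library does not depend on how the library was scaled. There were 11.3 and 14.4 FPKM of Pmch for each FPKM of Hcrt in the mutant libraries of E17.5, and 5.93 and 7.36 in the wild-type libraries. The mean was 12.9 ± 2.16 in mutant and 6.65 ± 1.02 in wild-type (SD, n = 2 each), and the groups did not overlap. The log2 ratio differed by 0.95, at p = 0.333 in an exact two-sided permutation test, which is the smallest p that 2 libraries against 2 allow. Because mutant Hcrt lay below wild-type and mutant Pmch above it, both without overlap, the ratio could not overlap. Its p was thus fixed by the values of the 2 genes and adds no separate result. No ratio could be formed where Hcrt was listed at 0.

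**Figure D3:**
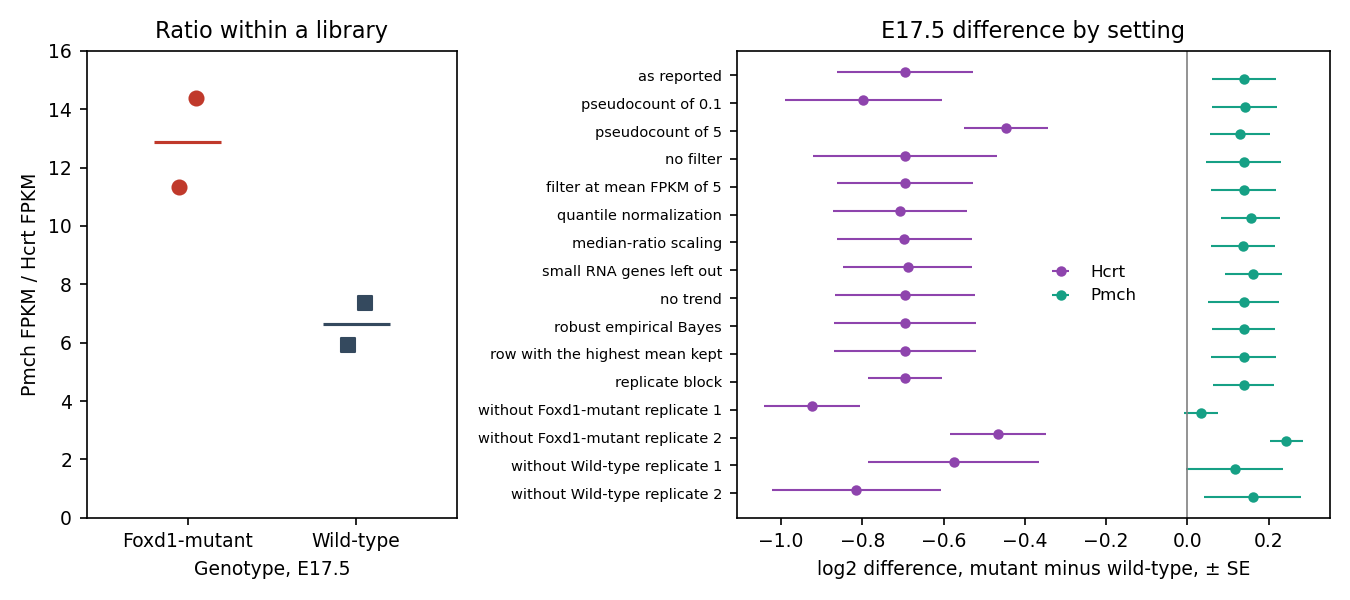
Left, Pmch FPKM divided by Hcrt FPKM in each E17.5 library by genotype, with lines at the means of 12.9 in mutant and 6.65 in wild-type. Right, log2 difference (mutant minus wild-type, ± SE) of Hcrt and Pmch at E17.5 under each processing setting, negative throughout for Hcrt and positive throughout for Pmch.

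At E12 Pmch was higher in mutant at both stages by similar amounts. The log2(FPKM + 1) difference, from the levels given above, was 0.51 in the E12.0 pair and 0.49 in the E12.5 pair. With stage as a block limma gave a difference of 0.50 with a standard error of 0.12 (95% interval 0.18 to 0.82) at an unadjusted p of 0.00998, and the adjusted p was 0.976. Pmch did not pass the adjusted threshold, which 4 of 11952 genes (0.0335%) did, higher and lower in equal number (0.0167% each). At unadjusted p under 0.05, where Pmch lay, 0.602% of genes were higher and 0.803% lower. Of all genes tested, 25.9% were higher in mutant at both early stages, and 121 had a log2 difference as high as that of Pmch or higher. With no replicates within a stage, the spread is how far the 2 stages disagreed, which limma pulls toward a trend over all genes tested. For Pmch the 2 stages nearly agreed, so the standard error and p rest mostly on that trend. Hcrt was under the filter of a mean of 1 FPKM at E12 and was not tested there.

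**Figure D4:**
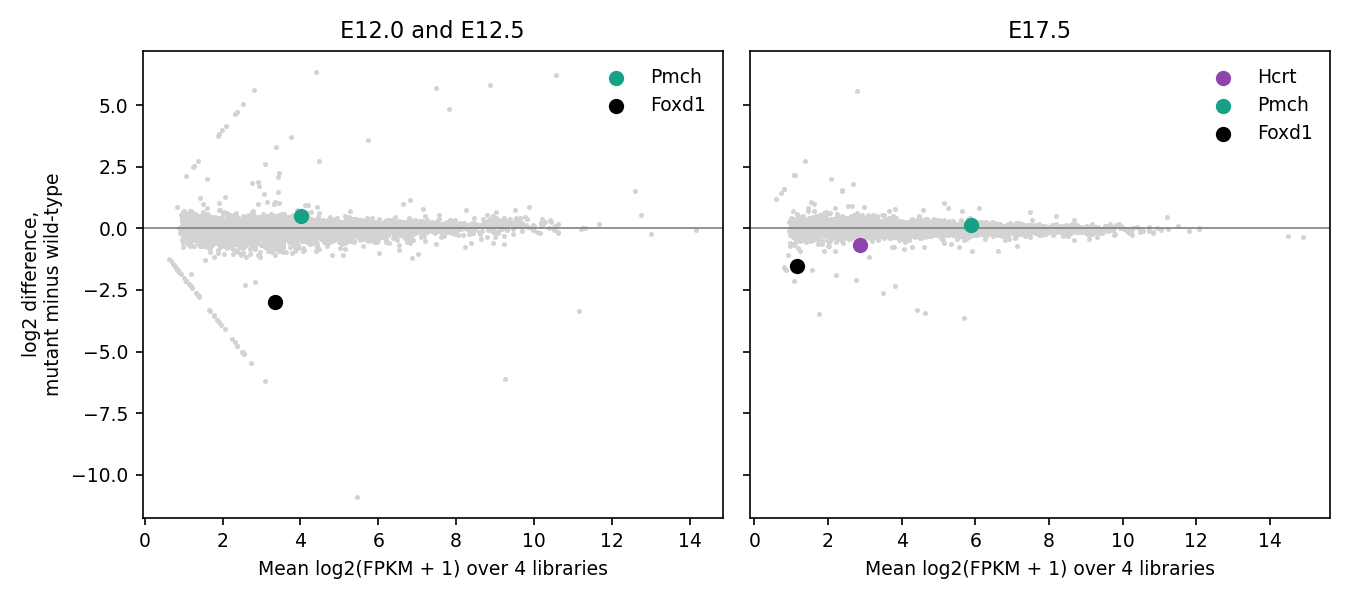
Log2 difference (mutant minus wild-type) against mean log2(FPKM + 1) for all genes tested at E12.0 and E12.5 (left) and at E17.5 (right), with Hcrt, Pmch and Foxd1 marked. Hcrt lies below 0 at E17.5 (-0.70), Pmch lies above 0 at both (0.50 and 0.14), and Foxd1 is the lowest of the genes marked in each panel.

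Among 13 peptide precursor genes listed for the lateral hypothalamus, Pmch was one of the most abundant. At E17.5 it ranked first or second in every library, next to Sst, the somatostatin precursor, which was at 58.0 and 99.8 FPKM in the mutant and 75.7 and 70.2 FPKM in the wild-type libraries. The ranges of Pmch and Sst overlapped in mutant, while in wild-type both Sst values lay above both Pmch values. Among all 22791 symbols outside small RNA genes Pmch ranked 1175 and 1368 in the mutant and 1451 and 1424 in the wild-type libraries. Hcrt ranked 10 of the 13 in all 4 libraries of E17.5.

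None of the receptor genes passed the threshold at E17.5. Hcrtr1 and Hcrtr2 encode the orexin receptors and Mchr1 the MCH receptor found in rodents. At E17.5 Hcrtr1 was at 1.48 and 0.901 FPKM in the mutant and 1.31 and 1.41 in the wild-type libraries. Hcrtr2 was at 2.33 and 2.10 in the mutant and 2.18 and 2.48 in the wild-type libraries. For both genes the groups overlapped. Mchr1 was at 3.50 and 3.15 FPKM in the mutant and 3.65 and 3.80 in the wild-type libraries, without overlap. The log2 differences were -0.12 for Hcrtr1, -0.05 for Hcrtr2 and -0.13 for Mchr1, none past the adjusted or the unadjusted threshold. The small differences of Hcrtr1 and Hcrtr2 change sign when single libraries are left out. At E12 all 3 were under the filter on low values.

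Other genes that are known from orexin neurons had no common direction at E17.5. Of 9 listed 8 were tested, 4 with positive and 4 with negative log2 differences, where 51% of all genes were positive and 49% negative. Their median was -0.02, beside 0.00 over all genes. None passed the adjusted threshold, and at unadjusted p under 0.05 there were 2 lower, where 3.52% of all genes were, and 1 higher, where 2.18% were. Nptx2, a pentraxin that gathers glutamate receptors at synapses, was at 10.9 and 9.49 FPKM in the mutant and 13.5 and 13.3 in the wild-type libraries. Pdyn, the dynorphin precursor made by orexin neurons, was at 9.08 and 6.99 FPKM in the mutant and 10.3 and 9.74 in the wild-type libraries. Both lay lower in mutant without overlap, with log2 differences of -0.37 and -0.29 (unadjusted p = 0.00406 and 0.0497 by limma). Igfbp3, a binding protein of insulin-like growth factors, lay higher, at 9.49 and 11.6 FPKM in the mutant and 8.70 and 8.12 in the wild-type libraries. Lhx9, a LIM homeobox gene that takes part in specifying orexin neurons and is also made in the thalamus, differed by -0.09 on the log2 scale. The regulators Ebf2 (0.04) and Rfx4 (0.02) differed little, and Qrfp, a peptide gene of nearby neurons, was under the filter. All these genes are also made by cells without orexin.

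Of 8 genes known from MCH neurons 7 were tested at E17.5, 3 with positive and 4 with negative differences and a median of -0.06. Cartpt, the precursor of the peptide CART that many MCH neurons make, was at 4.37 and 3.58 FPKM in the mutant and 4.87 and 3.70 in the wild-type libraries, with overlap. Nptx1, another pentraxin, was at 5.31 and 4.82 FPKM in the mutant and 5.98 and 5.97 in the wild-type libraries. Its log2 difference was -0.20, and it alone in this list had an unadjusted p under 0.05 (0.0349 by limma), where 3.52% of all genes were lower at that threshold. Amigo2, a cell adhesion gene, differed by -0.15 and Parpbp by 0.13. The value of Parpbp, which is counted in this list, may hold reads from the stretch it shares with Pmch. Otx1, a homeobox gene, was under the filter. None passed the adjusted threshold.

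The regulators of this part of the hypothalamus had no common direction at E17.5. All 14 listed genes, some of them also in the orexin list, were tested, 6 with positive and 8 with negative differences and a median of -0.02, and none passed the adjusted threshold. Barhl1, a homeobox gene of the mammillary region, had the largest difference, with 2.91 and 2.58 FPKM in the mutant and 3.40 and 3.48 in the wild-type libraries (log2 -0.25). The forkhead gene Foxb1 (-0.18), Dbx1 (-0.15), which lateral hypothalamic neurons need to form in mice, and Hmx2 (0.10) followed. At E12, when Dbx1 is made in progenitors, it was at 24.8 FPKM in mutant and 41.0 FPKM in wild-type in the E12.0 pair and at 42.6 FPKM in mutant and 33.2 FPKM in wild-type in the E12.5 pair, so its direction differed between the stages. Lhx9 was at 9.35 FPKM in mutant and 8.42 FPKM in wild-type in the E12.0 pair and at 3.37 FPKM in mutant and 9.99 FPKM in wild-type in the E12.5 pair. Nkx2-1, needed for the ventral hypothalamus, was at 13.1 FPKM in mutant and 39.8 FPKM in wild-type, then at 29.96 FPKM in mutant and 24.2 FPKM in wild-type. Of these 14 genes 1 was higher and 2 were lower in mutant at both early stages, where 25.9% of all genes were higher and 21.8% lower at both.

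Among the other peptide precursors, 6 of 10 tested had negative differences at E17.5, where 49% of all genes did. At unadjusted p under 0.05 by limma there were 3 lower, where 3.52% of all genes were, and 1 higher, where 2.18% were. Crh, whose product drives release of corticotropin, stood at 1.77 and 1.605 FPKM in the mutant and 4.71 and 3.55 FPKM in the wild-type libraries. Its log2 difference was -0.92 and that of Tac1, the tachykinin precursor, -0.39, so Hcrt lay between them. The unadjusted p of Crh and Tac1 by limma, 0.000481 and 0.000405, were both lower than that of Hcrt. Tac1 was at 19.4 and 18.7 FPKM in the mutant and 25.0 and 25.5 in the wild-type libraries. Nts, the neurotensin precursor, lay higher, at 22.6 and 27.2 FPKM in the mutant and 20.4 and 17.4 in the wild-type libraries (log2 0.38). The median was -0.08, and none passed the adjusted threshold. Like Hcrt, Crh was listed at 0 in both mutant libraries of E12 and at 0.0432 FPKM or less in wild-type. At E12, Trh, the thyrotropin-releasing hormone precursor, was higher in mutant at both stages, as Pmch was, with 3.82 FPKM in mutant and 3.06 FPKM in wild-type in the E12.0 pair and 14.8 FPKM in mutant and 6.23 FPKM in wild-type in the E12.5 pair. It was the 1 gene of the 6 tested that was.

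Both precursors are cleaved and packed by a shared machinery. Of its 11 listed genes 9 had negative and 2 positive differences at E17.5, with a median of -0.10, and 5 lay lower in mutant without overlap, where 49% of all genes were negative and 22.2% lay lower without overlap. Pcsk2, a convertase that cuts precursors at paired basic residues, was at 15.3 and 13.6 FPKM in the mutant and 17.6 and 18.4 in the wild-type libraries (log2 -0.30). Its partner convertase Pcsk1 differed by -0.20, and Pcsk1n, whose product inhibits that convertase, by -0.44. Vgf, a granin-like precursor, was at 19.5 and 15.1 FPKM in the mutant and 21.8 and 22.2 in the wild-type libraries. Cpe, which trims the cut peptides, was at 483 and 459 FPKM in the mutant and 478 and 504 in the wild-type libraries. None of the 11 passed the adjusted threshold.

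**Figure D5:**
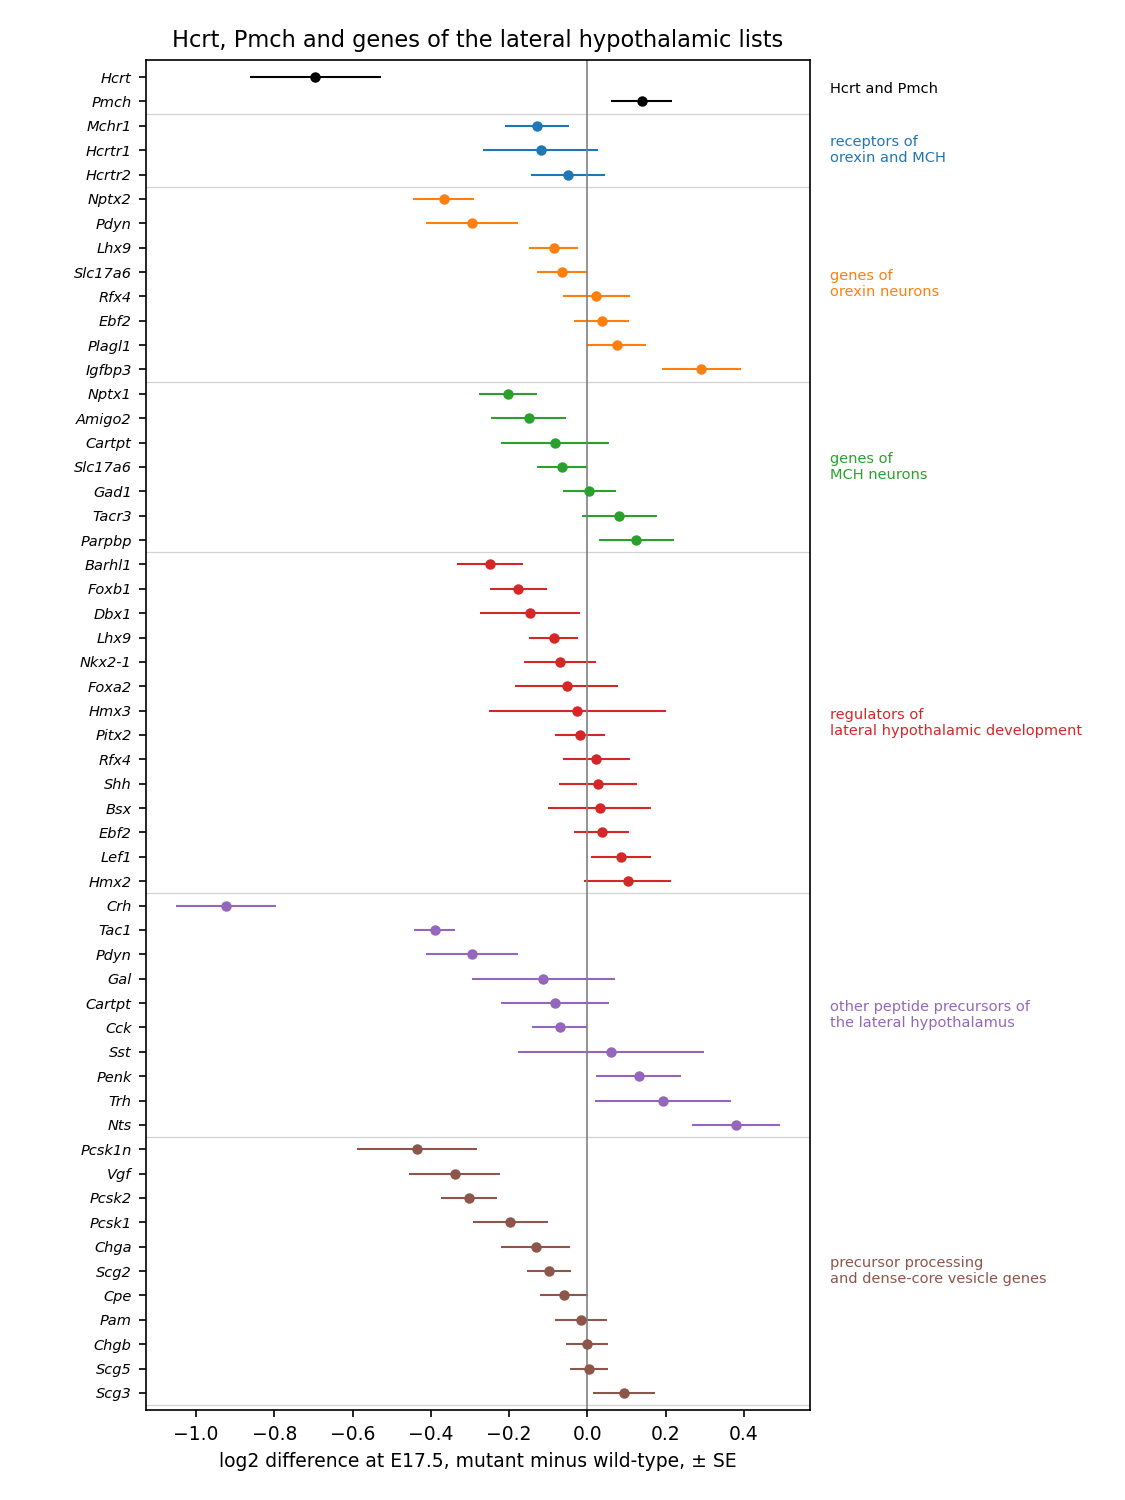
Log2 difference at E17.5 (mutant minus wild-type, point ± SE) of Hcrt, Pmch and the tested genes of 6 lists, named at the right. Hcrt (-0.70) is lower than every gene shown except Crh (-0.92), and Pmch (0.14) lies among the genes near 0.

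None of the markers of hypothalamus, telencephalon, thalamus or pituitary passed the adjusted threshold at E17.5. In its telencephalon markers mutant replicate 2, which had the lowest Hcrt, stood apart. The 10 telencephalon markers summed to 50.3 and 108.1 FPKM in the mutant and 47.7 and 46.3 FPKM in the wild-type libraries. All 10 had positive differences, where 51% of all genes did, among them Eomes (0.89) and Neurod6 (0.77). Of these markers 5 lay above without overlap, where 20.9% of all genes did. Without mutant replicate 2, a setting chosen after seeing the data, 5 were positive and 5 negative, with a median of -0.06 in place of 0.61. Neurod6 was at 8.59 and 33.7 FPKM in the mutant and 8.48 and 11.1 in the wild-type libraries. The 13 hypothalamus markers summed to 89.7 and 96.5 FPKM in mutant and 189 and 142 FPKM in wild-type. Without Avp, the vasopressin precursor, they summed to 80.3 and 93.0 FPKM in mutant and 117 and 79.96 FPKM in wild-type, which overlap. That overlap rests on Pomc, also listed for the pituitary, at 18.6 and 41.4 FPKM in mutant and 38.9 and 11.3 FPKM in wild-type. Of the 12 tested, 10 had negative differences, as 49% of all genes did, and 8 lay lower in mutant without overlap, as 22.2% did, among them Avp (-3.32), Otp (-0.77), Fezf1 (-0.57) and Nr5a1 (-0.52). Without mutant replicate 2, 9 of these 12 were negative and 3 positive, with a median of -0.23 in place of -0.27. The 6 thalamus markers summed to 49.98 and 44.5 FPKM in mutant and 47.8 and 52.0 in wild-type, with Rora (-0.23), Tcf7l2 (-0.10), Lhx9 (-0.09) and Gbx2 (0.05). The 7 pituitary markers summed to 71.1 and 109.8 FPKM in mutant and 124 and 32.2 in wild-type, with Tshb (0.86), Cga (0.55), Pomc (0.38) and Gh (0.32). No marker in these lists was at 0 in any E17.5 library except Pou1f1 in 1 wild-type library, and the part of other tissue in the Hcrt result was not tested. Without mutant replicate 2 the Hcrt difference was -0.47, with mutant replicate 1 at 5.74 FPKM still below both wild-type libraries. Pmch in mutant replicate 2, at 56.2 FPKM, was not below either wild-type library.

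At E12, beside the higher Pmch of the mutant, the hypothalamus markers summed to 139 FPKM in mutant and 218 FPKM in wild-type in the E12.0 pair and to 216 FPKM in mutant and 212 FPKM in wild-type in the E12.5 pair. Avp was listed at 0 in both mutant libraries and in the wild-type library of E12.0, where Agrp was at 0 too. The thalamus markers summed to 38.8 FPKM in mutant and 33.4 FPKM in wild-type, then to 16.1 FPKM in mutant and 52.2 FPKM in wild-type. The telencephalon markers summed to 65.7 FPKM in mutant and 86.2 FPKM in wild-type, then to 60.3 FPKM in mutant, where Emx1 was at 0, and 59.1 FPKM in wild-type. Their part in the Pmch difference was not tested.

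The genes whose profile over the 8 libraries was most like that of Hcrt were 2810459M11Rik, Tmem151a, Nwd2, Ache (acetylcholinesterase) and A230065H16Rik, at root mean square differences of 0.19, 0.21, 0.22, 0.24 and 0.24 log2 units between centred profiles, out of 12721 genes. For Pmch they included Calcr (the calcitonin receptor), Rnf112, Tyrobp (a signalling adaptor of microglia) and Cldn5 (a tight junction gene of blood vessels), at 0.30, 0.30, 0.31 and 0.32. For Hcrt the measure is governed by the step between the early and the late tables. Pmch rose more within the early tables, 4.25 times in mutant and 4.50 times in wild-type from E12.0 to E12.5. From E12.5 to E17.5 it rose 1.64 and 2.10 times. The neighbours of Hcrt on the chromosome both lay lower in mutant at E17.5 by little. Kcnh4, a potassium channel gene, was at 3.14 and 2.51 FPKM in the mutant and 3.59 and 3.38 in the wild-type libraries, and Ghdc was at 3.18 and 3.09 in the mutant and 3.22 and 3.28 in the wild-type libraries. The other genes next to Pmch, besides Parpbp, are noncoding and were not in the tables used here.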

How the data were processed

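The authors deposited gene levels as FPKM per library. TopHat, Cufflinks and build mm9 are named, without versions, per the submitters' processing notes. Per the labels' protocols the libraries were paired-end (100 cycles) from pooled RNA. The E12 tables held 23737 rows and 23440 symbols, with 8 rows of no gene name left out. The E17.5 tables held 32952 rows and 24002 symbols. Rows were summed by symbol. Small RNA genes carried 9.77% to 24.5% of FPKM.

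Values were tested as log2(FPKM + 1) with limma 3.58.1 in R 4.3.3 with a variance trend, two-sided, on genes averaging 1 FPKM or more, at E17.5 over 4 libraries and at E12 over 4 with stage as a block. Adjustment was by Benjamini and Hochberg over all genes tested. The fits were tested on simulated data. Alternatives changed the pseudocount, filter, scaling, variance model, row choice, blocks and libraries.

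Depth was estimated at E17.5 from single-row transcripts over 2500 bases, taking off 170 bases, as the FPKM of 1 fragment, with values up to 5 fragments called whole within 0.1. The share called whole came to 79.3% or more per E17.5 library. Intervals cover counting error only. Promoters came from RefSeq (GRCm38.p6, both genes matched), exons and lengths from GENCODE M21.

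The members and lists were chosen with earlier results of these data known. From each list, genes past the adjusted threshold and up to 4 with the largest differences were named, others after their values were seen. Likeness named 5 genes per member. Some genes these rules name are not reported here. Tables and figures were made with pandas 2.3.3, numpy 2.4.6, matplotlib 3.10.9 and scipy 1.17.1 in Python 3.11.15.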

Additional observations from a re-analysis of the deposited data

How the results depend on the processing

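Over 15 alternatives the log2 difference at E17.5 stayed negative for Hcrt (-0.92 to -0.45) and positive for Pmch (0.03 to 0.24). The replicate numbers shared by the E17.5 libraries did not pair them (correlation of same-numbered deviations 0.028). With the replicate block Hcrt had an adjusted p of 0.0188 at the same -0.70, the 1 setting in which it passed. Leaving out single libraries gave -0.92 to -0.47 for Hcrt and 0.03 to 0.24 for Pmch, in each case between the fits without mutant replicate 1 and without mutant replicate 2. Genes past the adjusted threshold at E17.5 were 1 as reported, 0 with no filter and with a filter at 5 FPKM (1371 and 560 at unadjusted p under 0.05 by limma), 16 with the replicate block and 1 to 44 with a library left out, the highest without mutant replicate 1. Without the others there were 10 (mutant replicate 2), 4 (wild-type replicate 1) and 1.

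At E12 there were 4 as reported, 0 with no filter (678 at unadjusted p under 0.05 by limma), 1 with pseudocount 5, quantile normalization, median-ratio scaling and no trend, 2 without small RNA genes, and 78 without the stage block. Without the block and 1 library there were 64 (wild-type E12.0), 70 (mutant E12.0), 80 (wild-type E12.5) and 64 (mutant E12.5). Pmch at E12 kept its sign and side of the threshold in 13 of 15 alternatives and reversed without the stage block and the wild-type E12.0 (-0.50) or mutant E12.5 library (-0.49). By construction these compare groups of unequal stage.

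With small RNA genes left out, Pmch was at 12.4 FPKM in mutant and 8.85 FPKM in wild-type in the E12.0 pair, 40.9 FPKM in mutant and 28.8 FPKM in wild-type in the E12.5 pair, and 70.3 FPKM in mutant and 62.6 FPKM in wild-type by E17.5. Wild-type Hcrt was at 0.151 FPKM (E12.5) and 9.52 FPKM (E17.5).

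Differences of other named genes, among them Neurod6 (0.77 as reported) and Cga (0.55), changed sign with a library left out. Their ranges of log2 difference were -0.31 to 0.073 for Hcrtr1, -0.11 to 0.014 for Hcrtr2, -0.24 to 0.078 for Cartpt, -0.034 to 0.24 for Hmx2, -0.16 to 1.69 for Neurod6, -0.27 to 0.068 for Tcf7l2, -0.14 to 0.24 for Gbx2, -0.54 to 1.64 for Cga, -0.47 to 1.22 for Pomc and -0.62 to 1.25 for Gh. With the transcript row of highest mean alone, Lhx9 was at 0.10.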
